A study of Homo sapiens with 6 samples.

Results

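Tubular injury markers are genes that kidney tubular epithelial cells switch on, or keep on, when they are damaged, lose their mature state or try to repair. The 10 markers described here were taken by symbol from a written list, which was chosen with earlier results of these data known. They are LCN2, HAVCR1, VCAM1, SPP1, CD44, CLU, SOX9, CD24, PROM1 and S100A6. All 10 were found among the 38100 genes of the deposited tables and all 10 were among the 17720 genes with enough counts to be tested. The samples were HK2 cells, an established line of human proximal tubular epithelial cells. Cells that carried an adenovirus with an empty vector (AdCtrl, 3 samples) were set against cells infected with an adenovirus for SIRT4 (AdSIRT4, 3 samples), and the label of every sample gives a WT genotype and stimulation with TGF-β1. No unstimulated and no uninfected cells were among the 6 samples, so the comparison bears on SIRT4 overexpression and not on the answer of the markers to TGF-β1 or to the virus. The promoter that drives SIRT4 in the adenovirus is not given in the sources used here.

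In the injured kidney these genes stand for different steps. LCN2 and HAVCR1, known as NGAL and KIM-1, are the classical markers of acute tubular injury, and both were measured as such in the mouse kidneys of the study. VCAM1 marks tubular cells whose repair has failed, SPP1 and CLU are secreted by stressed tubules, and CD44 is a receptor for hyaluronan and osteopontin that damaged tubules display. CD24 and PROM1 mark scattered tubular cells with progenitor features, SOX9 is a transcription factor of regenerating tubules, and S100A6 is a calcium-binding protein of dedifferentiated and dividing cells.

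The files bear on transcript amounts and not on promoters, and the sequences before the starts of the genes are given as background to the markers. Of the 10 markers, 8 had a promoter in the RefSeq table of GRCh38.p14 (CLU and SOX9 did not). The 250 bases before each start were searched on both strands for the AP-1 motif, a 10-base NF-κB consensus and the TATA motif TATAAA. The AP-1 motif was written as TGANTCA, in which N is any base. The AP-1 motif was found before LCN2 and PROM1, and in 6.57% of the 35116 promoters in the table. The NF-κB consensus was found before VCAM1 and in 1.93% of all promoters, and the TATA motif before VCAM1 and in 10.7%. Counted from the start, with -1 as the base before it, the AP-1 match of LCN2 lies at -52 to -46, and the NF-κB and TATA matches of VCAM1 at -62 to -53 and -29 to -24. VCAM1 also held the TATA motif on the minus strand, at -205 to -200 and at -31 to -26, and the last of these overlaps the match on the plus strand. LCN2 and VCAM1 are shown because they lie at opposite ends of the order of fold changes given below. PROM1 is shown because it also matches the AP-1 motif, with G as the middle base where LCN2 has A. Capitals mark the AP-1 motif in LCN2 and PROM1 and the NF-κB and TATA motifs, in this order, in VCAM1. The LCN2 sequence lies at chr9:128149203-128149452 and the VCAM1 sequence at chr1:100719492-100719741, both on the plus strand. The PROM1 sequence is a window of 30 bases at chr4:16076289-16076318 on the minus strand, before 1 of the 4 starts that the table lists for PROM1. A match is a match of letters and not a measured binding site. Stretches that depart from these letters were not sought or marked, so a gene without a match may still hold a site.
LCN2: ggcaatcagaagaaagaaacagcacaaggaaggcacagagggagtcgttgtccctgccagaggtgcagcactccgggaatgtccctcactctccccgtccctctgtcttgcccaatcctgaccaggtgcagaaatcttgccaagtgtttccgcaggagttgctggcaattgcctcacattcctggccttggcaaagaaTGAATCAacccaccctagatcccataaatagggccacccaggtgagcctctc
VCAM1: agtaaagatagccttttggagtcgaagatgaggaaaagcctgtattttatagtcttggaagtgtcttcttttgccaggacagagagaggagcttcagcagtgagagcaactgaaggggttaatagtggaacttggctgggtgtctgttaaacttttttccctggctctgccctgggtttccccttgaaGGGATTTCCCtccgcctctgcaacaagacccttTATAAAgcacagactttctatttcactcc
PROM1: gggaccttctgTGAGTCAtggctttgatgc

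The deposited counts summed to between 42102861 and 53677241 in the AdCtrl samples and to between 41537353 and 85684748 in the AdSIRT4 samples. A count of 0 allows up to 3 counts, at most 0.0722 CPM (counts scaled to library size with TMM factors) in any sample, which covers counting error alone. SIRT4 had 31 to 57 counts in AdCtrl cells and 1996 to 7995 in AdSIRT4 cells, so each library matched its label. Of the epithelial markers, KRT8, KRT18, KRT19 and EPCAM had mean levels from 25.1 to 426 FPKM, while CDH1 stayed at 0.119 FPKM in AdCtrl and 0.108 FPKM in AdSIRT4 cells. Of the markers of the proximal tubule, GGT1, PAX8 and SLC3A1 had a mean level of at least 1 FPKM, and LRP2 and the transporters SLC5A12, SLC22A6 and SLC22A8 had no count in any AdCtrl sample, so the labelled cell type showed its keratins and PAX8 while these transporters of the mature tubule were at or near 0. The leukocyte genes PTPRC and CD3E and the endothelial genes CDH5, KDR and EMCN had means of at most 0.00766 FPKM in both groups. The other members of these lists were higher. In AdCtrl and AdSIRT4 cells CD68 reached 18.2 and 20.3 FPKM, CD14 1.55 and 1.32 FPKM, and PECAM1 0.0315 and 0.0351 FPKM. The summed level of the 4 leukocyte markers ran from 34.3 to 39.6 CPM in AdCtrl and from 38.3 to 49.4 CPM in AdSIRT4 cells, that of the 4 fibroblast markers from 16.9 to 18.6 CPM and from 15.5 to 23.1 CPM, that of the 4 endothelial markers from 0.259 to 0.350 CPM and from 0.257 to 0.452 CPM, that of the 3 podocyte markers from 4.52 to 5.09 CPM and from 4.11 to 6.37 CPM, and that of the 6 markers of the loop and collecting duct from 0.662 to 1.04 CPM and from 0.591 to 0.898 CPM.

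AdSIRT4 replicate 1 stood apart from the other AdSIRT4 samples. Its counts summed to 41537353, against 85684748 and 80040053 in replicates 2 and 3. It had 51.2 CPM of SIRT4, against 92.7 and 84.0 CPM in replicates 2 and 3. Short genes were also high in it. When the tested genes were divided into 10 equal groups by the length that both tables imply, the median of log2 CPM in replicate 1 minus the mean of replicates 2 and 3 went from 0.67 in the shortest genes (up to 1324 bases) to -0.74 in the longest (from 8818 bases). Each marker is therefore given with and without AdSIRT4 replicate 1. Whether its depth, its SIRT4 level or its length trend bears on the marker values was not tested. Samples of RNA from a culture cannot tell fewer cells with a transcript from less transcript per cell.

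The injury markers covered most of the range of expression in these cells. In AdCtrl cells, S100A6 and SPP1 were the most abundant, with 1518 ± 57.4 and 1239 ± 64.9 FPKM (SD, n = 3), and ranked 18 and 26 among all genes by mean FPKM. CD24 followed with 741 ± 37.0 FPKM and LCN2 with 388 ± 48.9 FPKM (SD, n = 3), at ranks 54 and 127. The middle of the order was held by CLU with 101 ± 6.62 FPKM, HAVCR1 with 83.2 ± 2.23 FPKM and CD44 with 35.2 ± 2.18 FPKM (SD, n = 3). VCAM1 had 3.02 ± 0.495 FPKM, SOX9 1.18 ± 0.195 FPKM and PROM1 0.197 ± 0.00743 FPKM (SD, n = 3), so that these 3 markers were scarce transcripts here. In AdCtrl cells no sample of one marker overlapped with a sample of its neighbour in this order. In AdSIRT4 cells the samples of CD24 (508.8 to 772 FPKM) overlapped with those of LCN2 (534 to 638 FPKM), those of CLU (70.8 to 105 FPKM) with those of HAVCR1 (38.5 to 93.9 FPKM), and those of HAVCR1 with those of CD44 (31.2 to 45.3 FPKM). In AdSIRT4 cells LCN2 ranked 100 and SPP1 35 among all genes.

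**Figure D1:**
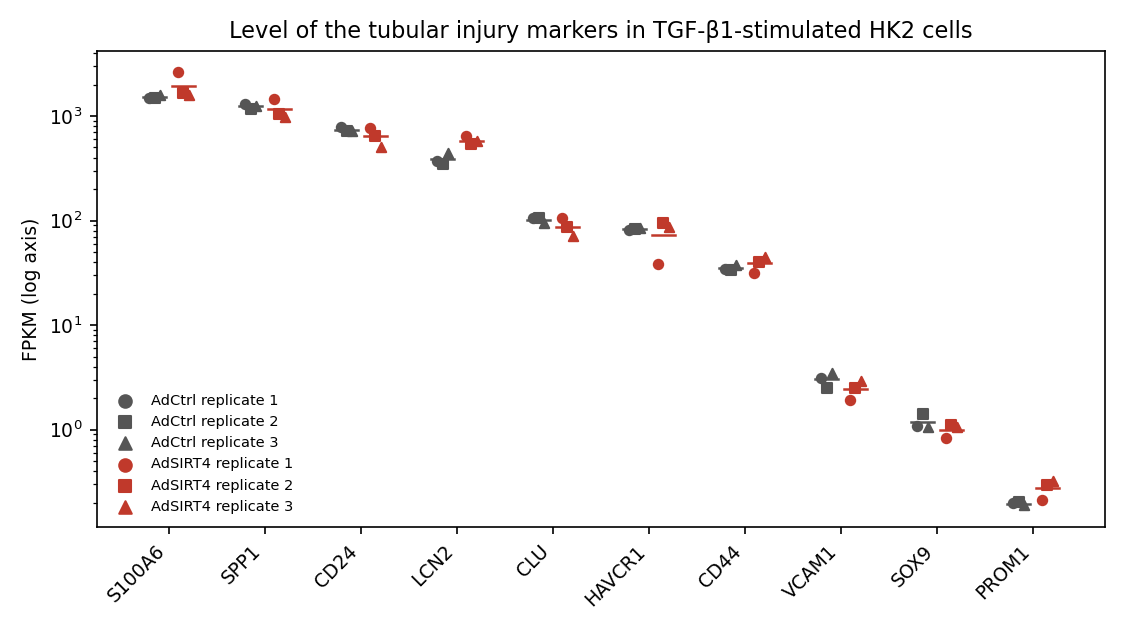
FPKM (log axis) of the 10 injury markers in each sample, ordered by the AdCtrl mean; gray symbols are AdCtrl and red symbols AdSIRT4 samples, the shape gives the replicate and the bar the mean. Levels run from 1518 FPKM for S100A6 to 0.197 FPKM for PROM1 in AdCtrl cells, and LCN2, S100A6 and PROM1 are the markers whose AdSIRT4 samples all lie above the AdCtrl samples.

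To find out which markers differed between AdSIRT4 and AdCtrl cells, their counts were compared in a fit over all 17720 genes. Of the 10 markers LCN2 had the largest log2 fold change and was higher in every AdSIRT4 sample, by 1.55-fold (95% interval 1.23 to 1.95). No marker passed an adjusted p of 0.05 from edgeR's quasi-likelihood test, where 0.0113% of all genes did (SIRT4 and 1 other gene). LCN2 was the 1 marker under an unadjusted p of 0.05, as were 7.93% of all genes. The groups did not overlap for 3 markers, LCN2, S100A6 and PROM1, all higher in AdSIRT4 cells, where 9.66% of all genes were higher without overlap and 19.4% did not overlap in either direction. The log2 fold change was above 0 for 4 markers and below 0 for 6, with a median of -0.11, where it was above 0 for 53.4% of all genes with a median of 0.021. DESeq2 called 1 marker (LCN2), where it called 1.16% of all genes. Limma on log2(FPKM + 1) called 0 markers and 0 of all genes, and SIRT4 itself was not called (limma adjusted p = 0.0847). Limma voom with sample quality weights called 3 markers, where it called 9.51% of all genes.

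**Figure D2:**
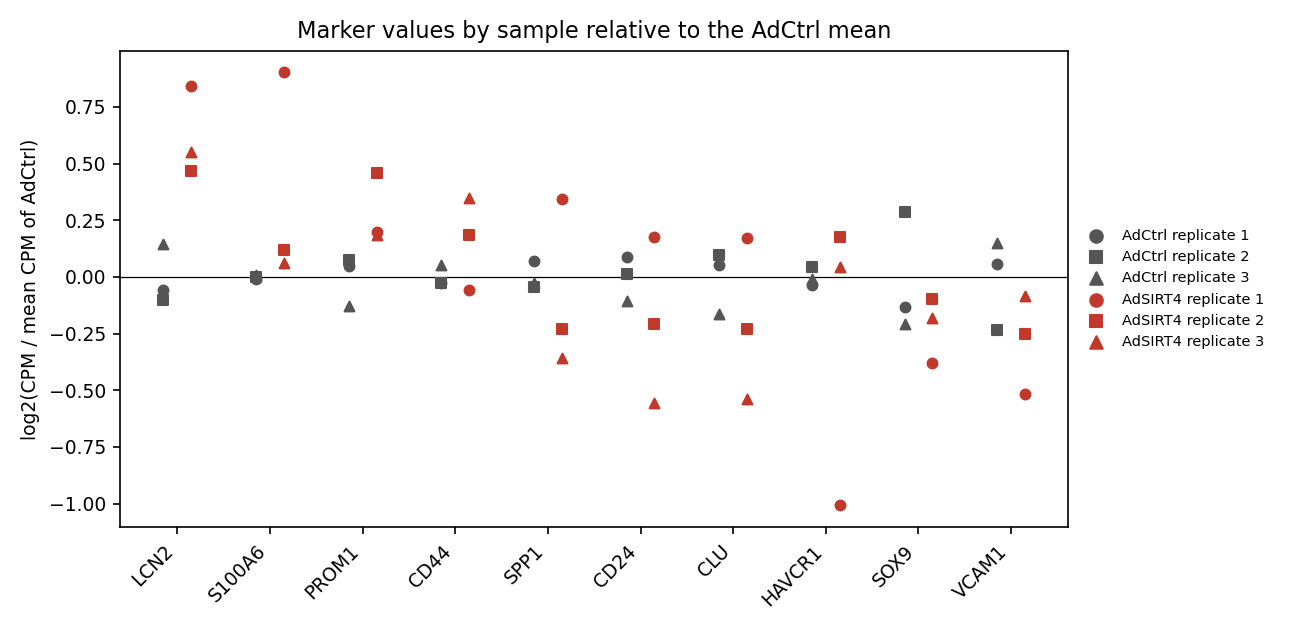
Log2 ratio of each sample's CPM to the AdCtrl mean, for the 10 markers in the order of their log2 fold change; gray symbols are AdCtrl and red symbols AdSIRT4 samples, and the shape gives the replicate. The red symbols all lie above the gray ones for LCN2, S100A6 and PROM1, and AdSIRT4 replicate 1 (red circle) lies on the other side from replicates 2 and 3 for CD44, SPP1, CD24, CLU and HAVCR1.

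LCN2 (Entrez gene 3934, chromosome 9, 128149453 to 128153453, plus strand) encodes the secreted lipocalin that binds bacterial siderophores and thereby iron. In replicates 1, 2 and 3 its values were 349, 338 and 402 CPM for AdCtrl and 650.3, 501 and 532 CPM for AdSIRT4. The lowest AdSIRT4 sample was thus above the highest AdCtrl sample, and replicate 1 was the highest of all. The means were 363 ± 34.0 and 561 ± 78.7 CPM (SD, n = 3), which gave a log2 fold change of 0.63 (standard error, SE, 0.142, 95% interval 0.29 to 0.96) with an adjusted p of 0.494 from edgeR's quasi-likelihood test and a p of 0.1 from the two-sided exact permutation test, the smallest that 3 samples against 3 allow. With the samples paired by replicate number, a test added after the data were seen, the two-sided exact sign-flip permutation test gave a p of 0.25, the smallest that 3 pairs allow. Between samples of the same replicate number the log2 difference was 0.90, 0.57 and 0.40. Without AdSIRT4 replicate 1 the log2 fold change was 0.50 and the adjusted p from edgeR 0.00415. Leaving out any 1 sample kept the value between 0.50 and 0.71. Over all 18 alternatives the adjusted p ran from 0.00356 to 0.971. The highest came from edgeR without AdCtrl replicate 3, where SIRT4 itself was not called. The difference was as high when the trend of each library on gene length was removed (0.50, SE 0.127, edgeR adjusted p = 0.174) as without replicate 1.

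SPP1 (Entrez gene 6696, chromosome 4, 87975714 to 87983411, plus strand) encodes osteopontin, a secreted phosphoprotein that binds integrins and CD44. Its levels were 2268, 2099 and 2123 CPM in the AdCtrl replicates and 2745, 1843 and 1689 CPM in the AdSIRT4 replicates. AdSIRT4 replicate 1 lay above all AdCtrl samples and replicates 2 and 3 lay below all of them. Over all samples this gave a log2 fold change of -0.048 (SE 0.203, 95% interval -0.53 to 0.43, edgeR adjusted p = 0.939), and without replicate 1 it was -0.30 (edgeR adjusted p = 0.0180), within a range from 0.0180 to 0.994 over its alternatives. CLU (Entrez gene 1191), the gene of the secreted chaperone clusterin, had 329, 339 and 283 CPM in the AdCtrl replicates and 357, 270.4 and 218 CPM in the AdSIRT4 replicates. In CPM its AdSIRT4 samples lay as those of SPP1 did, with replicate 1 at the top and replicates 2 and 3 at the bottom. Its log2 fold change was -0.17 (SE 0.190, edgeR adjusted p = 0.799), and it was -0.38 without replicate 1 (adjusted p = 0.0832 from edgeR).

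Among the surface receptors, HAVCR1 gave the widest spread. HAVCR1 (Entrez gene 26762, chromosome 5, 157029413 to 157069407, minus strand) encodes the phosphatidylserine receptor with which injured proximal tubular cells take up apoptotic bodies. Its values were 156, 165 and 159 CPM in the AdCtrl replicates and 79.7, 181 and 165 CPM in the AdSIRT4 replicates. Replicate 1 was far below every other sample, replicate 2 was the highest of all, and replicate 3 lay within the AdCtrl range. In the fit of all samples the log2 fold change was -0.17 (SE 0.282, 95% interval -0.84 to 0.49, edgeR adjusted p = 0.850) and turned to 0.11 without replicate 1 (adjusted p = 0.285 from edgeR). HAVCR1, with an implied length of 1942 bases, was lower in replicate 1 than in the mean of replicates 2 and 3 by a log2 difference of -1.12, where genes of the same length group had a median of 0.31 and quartiles of 0.039 and 0.51.

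CD44 (Entrez gene 960, chromosome 11, 35139171 to 35232402, plus strand) had 169, 169 and 178 CPM in the AdCtrl replicates and 165, 196 and 219 CPM in the AdSIRT4 replicates. Its samples were ordered the opposite way to those of SPP1, with AdSIRT4 replicate 1 below all AdCtrl samples and replicates 2 and 3 above all of them. With all samples its log2 fold change was 0.17 (SE 0.123, 95% interval -0.12 to 0.46, edgeR adjusted p = 0.744), and without replicate 1 it was 0.26 (edgeR adjusted p = 0.0253), within a range up to 0.971 over its alternatives. The values are per gene and do not separate the spliced forms of CD44. VCAM1 (Entrez gene 7412, chromosome 1, 100719742 to 100739045, plus strand), the adhesion molecule to which leukocyte integrins bind, had 11.02, 8.99 and 11.7 CPM in the AdCtrl replicates and 7.39, 8.88 and 9.99 CPM in the AdSIRT4 replicates. In CPM, AdSIRT4 replicates 1 and 2 lay below all AdCtrl samples and replicate 3 lay among them. In FPKM only replicate 1 lay below all of them, since AdSIRT4 replicate 2 (2.53) was above AdCtrl replicate 2 (2.48). Its log2 fold change was -0.27 (SE 0.158, 95% interval -0.64 to 0.10, edgeR adjusted p = 0.711) and was below 0 in all 18 alternatives (-0.17 without replicate 1), none of which passed the threshold.

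CD24 (Entrez gene 100133941, chromosome 6, 106969831 to 106976855, minus strand), a small glycoprotein anchored in the membrane, had 1938, 1842 and 1698 CPM in the AdCtrl replicates and 2066, 1581 and 1241 CPM in the AdSIRT4 replicates. By CPM, replicate 1 was again the highest and replicates 2 and 3 the lowest of the 6 samples. Its reads may be shared with the CD24 pseudogenes, so its level is uncertain. CD24 had a log2 fold change of -0.16 (SE 0.200, 95% interval -0.64 to 0.31, edgeR adjusted p = 0.811) and -0.38 without replicate 1 (adjusted p = 0.0685 from edgeR). PROM1 (Entrez gene 8842, chromosome 4, 15968228 to 16084023, minus strand), which encodes the membrane glycoprotein CD133, had 75, 60 and 63 counts in the AdCtrl replicates and 60, 159 and 124 counts in the AdSIRT4 replicates. After scaling these were 1.39, 1.41 and 1.23 CPM against 1.54, 1.84 and 1.53 CPM, so that the groups did not overlap. PROM1 had a log2 fold change of 0.29 (SE 0.184, 95% interval -0.15 to 0.72, edgeR adjusted p = 0.729), and 0.33 without replicate 1. SOX9 (Entrez gene 6662, chromosome 17, 72121020 to 72126416) had 4.85, 6.47 and 4.59 CPM in the AdCtrl replicates and 4.08, 4.96 and 4.68 CPM in the AdSIRT4 replicates. Its groups overlapped, with a log2 fold change of -0.21 (SE 0.173, 95% interval -0.62 to 0.20, edgeR adjusted p = 0.765). It was -0.14 without AdSIRT4 replicate 1 and -0.044 without AdCtrl replicate 2, the highest SOX9 sample.

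S100A6 (Entrez gene 6277, chromosome 1, 153534599 to 153535991, minus strand), the gene of calcyclin, had 739, 744 and 749.6 CPM in the AdCtrl replicates and 1391, 808 and 776 CPM in the AdSIRT4 replicates. The groups did not overlap, but AdSIRT4 replicate 1 was far above the other 2. Its log2 fold change of 0.41 (SE 0.235, 95% interval -0.14 to 0.97, edgeR adjusted p = 0.705) was 0.085 without replicate 1 (SE 0.0502, edgeR adjusted p = 0.323) and 0.21 with the length trend removed (SE 0.0740, edgeR adjusted p = 0.283). S100A6 is the shortest of the markers, with an implied length of 495 bases. In replicate 1 it exceeded the mean of replicates 2 and 3 by a log2 difference of 0.81, where the shortest length group had a median of 0.67 and quartiles of 0.22 and 0.88.

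**Figure D3:**
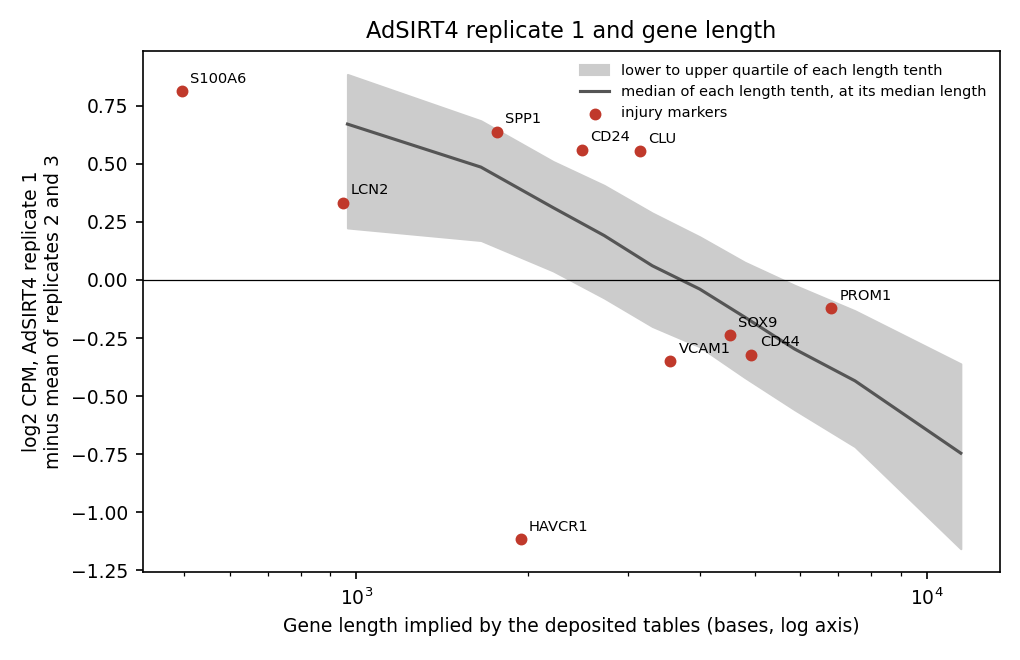
Log2 CPM of AdSIRT4 replicate 1 minus the mean of replicates 2 and 3 (vertical axis) against implied gene length (log axis); the line is the median and the band the range between the quartiles of each of 10 length groups, and the red points are the 10 markers. S100A6 (0.81) and LCN2 (0.33) lie within the range of the shortest genes, while HAVCR1 (-1.12) lies far below genes of its length and CD24 (0.56) and CLU (0.55) lie above theirs.

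Leaving out AdSIRT4 replicate 1 changed the calls of 3 markers. LCN2 and CD44 were then called higher and SPP1 lower in the 2 remaining AdSIRT4 samples (edgeR, adjusted p of 0.00415, 0.0253 and 0.0180), 3 of 10 markers where 6.71% of all genes were called, 3.37% as higher and 3.34% as lower. Limma voom, which gave each sample a quality weight, called the same 3 genes, where it called 9.51% of all genes. Both fits draw on the same samples, so they are not independent of each other. In CPM, AdSIRT4 replicate 1 lay above all AdCtrl samples and replicates 2 and 3 below all of them for SPP1, CLU and CD24. This order was found in 8.58% of all tested genes. The reverse order was found for CD44 and in 8.24% of all tested genes. In FPKM, AdSIRT4 replicate 1 was not the highest sample for CLU (105.39, against 105.6 in AdCtrl replicate 2). The same held for CD24 (772 FPKM, against 783 in AdCtrl replicate 1). With the replicate number as a block, none of the 10 markers was called, and 1 of all genes (0.00564%) was called in place of 2.

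**Figure D4:**
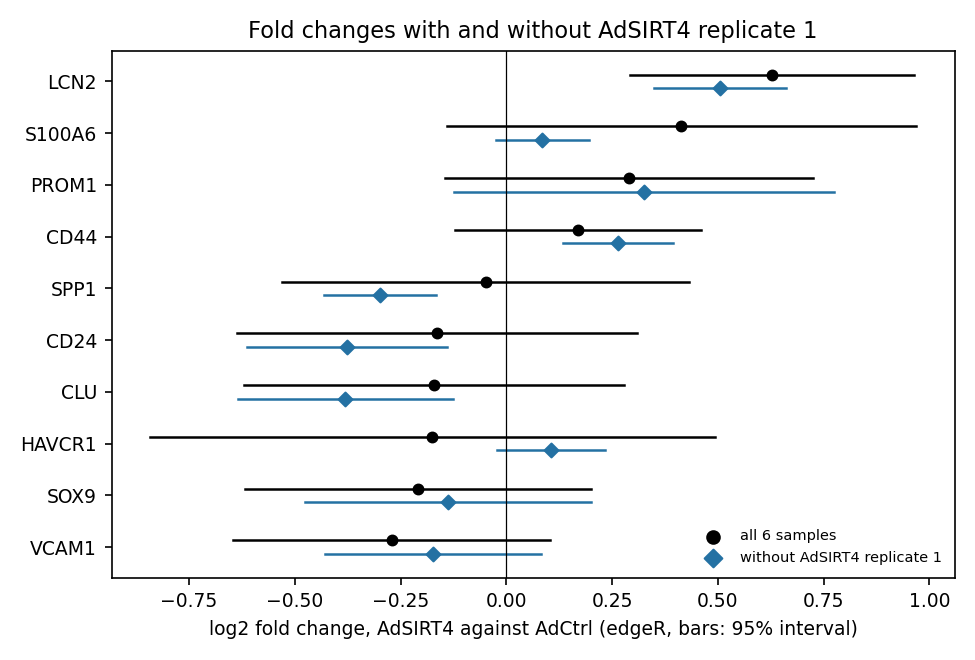
Log2 fold change (AdSIRT4 over AdCtrl) from edgeR with its 95% interval for the 10 markers, with all 6 samples (black circles) and without AdSIRT4 replicate 1 (blue diamonds). The interval of LCN2 lies above 0 in both fits, those of CD44, SPP1, CD24 and CLU exclude 0 only without replicate 1, and S100A6 goes from 0.41 to 0.085.

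Other genes of tubular injury and repair were read from a list of symbols, of which 29 were tested. None of the 29 was called by edgeR, where 0.0113% of all genes were. The unadjusted p was under 0.05 for 4 of them, all higher in AdSIRT4 cells, where 4.43% of all genes were higher at this threshold. DESeq2 called 1 of them, ITGB8, where it called 1.16% of all genes. Limma on log2(FPKM + 1) called 0 of them and 0 of all genes, and limma voom with sample quality weights called 7 of them and 9.51% of all genes. The log2 fold change was above 0 for 24 and below 0 for 5 of the 29, with a median of 0.12 (0.021 over all genes). This count moved with AdSIRT4 replicate 1 and with length, since 13 of 29 were above 0 without that library (median -0.033) and 18 of 29 with the length trend removed (median 0.067). ITGB8, the integrin subunit that with the αV chain releases active TGF-β from its latent form, had 229, 245 and 236 CPM in the AdCtrl replicates and 345, 416 and 375 CPM in the AdSIRT4 replicates. Every AdSIRT4 sample was well above every AdCtrl sample, and replicate 1 was the lowest of the 3. Its log2 fold change was 0.68 (SE 0.111, 95% interval 0.42 to 0.94, edgeR adjusted p = 0.307), and without replicate 1 it was 0.74 (adjusted p = 0.000126), within a range of adjusted p from 1.13e-06 to 0.971 over its alternatives. ITGB6, the subunit of another integrin that activates TGF-β, had a log2 fold change of 0.26 (SE 0.0855, edgeR adjusted p = 0.558). ATF3, a stress-induced transcription factor, had 0.39 (SE 0.113, edgeR adjusted p = 0.531), and TNFRSF12A, the receptor of TWEAK, had 0.32 (SE 0.110, edgeR adjusted p = 0.586). For ITGB6, ATF3 and TNFRSF12A the CPM of the groups did not overlap, though in FPKM the samples of ATF3 overlapped. Of the 29 genes, 7 were higher and 1 was lower without overlap in CPM. Of all genes, 9.66% were higher without overlap and 19.4% did not overlap in either direction. Without replicate 1, edgeR called 7 of the 29 genes, where it called 6.71% of all genes, with ITGB8, C3, KLF6, ATF3 and ITGB6 higher and LGALS3 (log2 fold change -0.27) and CST3 (-0.26) lower.

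**Figure D5:**
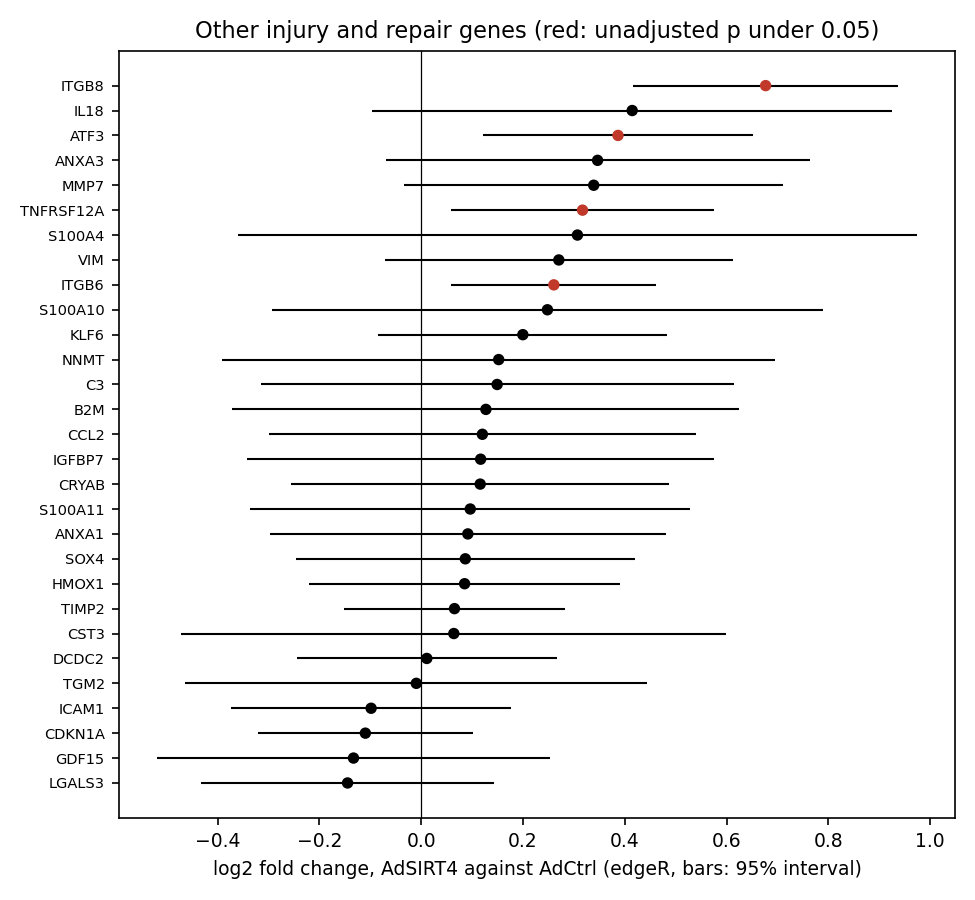
Log2 fold change (AdSIRT4 over AdCtrl) from edgeR, with its 95% interval, for the 29 tested genes of the list of other injury and repair genes; red points have an unadjusted p under 0.05. The 4 red points are ITGB8, ATF3, TNFRSF12A and ITGB6, and 24 of 29 points lie above 0, a count that falls to 13 without AdSIRT4 replicate 1.

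The receptors and binding partners of the markers were read from a list of 24, of which 20 were tested. LRP2, an endocytic receptor of LCN2 and CLU, and HAS1, SIGLEC10 and SELP had too few counts. None of the 20 was called by edgeR, by DESeq2, by limma on log2(FPKM + 1) or by limma voom. In this order, these called 0.0113%, 1.16%, 0 and 9.51% of all genes. With edgeR, 0 of the 20 were under an unadjusted p of 0.05, where 7.93% of all genes were. The log2 fold change was above 0 for 6 and below 0 for 14, with a median of -0.078 (9 above 0 and a median of -0.0078 with the length trend removed). The smallest p values were those of ADAM10, VLDLR, HAS2 and EZR. ADAM10, a protease that sheds CD44 from the cell surface, had 261, 260.4 and 273 CPM in the AdCtrl replicates and 219.9, 245 and 235 CPM in the AdSIRT4 replicates, a log2 fold change of -0.18 (SE 0.0961, edgeR adjusted p = 0.696) that turned to 0.017 with the length trend removed. VLDLR, a receptor of the LDL receptor family to which clusterin can bind, had a log2 fold change of -0.19 (SE 0.104, edgeR adjusted p = 0.701), which was -0.0044 with the length trend removed. For ADAM10 and VLDLR all AdSIRT4 samples lay below all AdCtrl samples. Of the 20 genes, 5 were lower and 1 was higher without overlap in CPM, where 19.4% of all genes did not overlap in either direction. EZR, which encodes ezrin and links CD44 to actin, had a log2 fold change of 0.16 (SE 0.105, edgeR adjusted p = 0.731). HAS2, a hyaluronan synthase, had 8 to 12 counts in AdCtrl and 14 to 32 counts in AdSIRT4 samples, and the interval of its log2 fold change of 0.68 (95% interval -0.31 to 1.68) included 0. Without replicate 1, VLDLR (log2 fold change -0.24, adjusted p = 0.0473 from edgeR) and HAS3 (0.24, adjusted p = 0.0282) were called, 2 of 20 where 6.71% of all genes were.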

How the data were processed

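RNA of 6 samples of HK2 cells was sequenced, 3 per group. The authors deposited raw counts per gene and a second table, read as FPKM. Its unit is not named and was inferred, since counts divided by FPKM gave the same length in all samples within 5% for 12734 of 18068 genes (lengths scaled between libraries). The submitters' processing notes name fastp 0.21.0, HISAT2 2.1.0, StringTie 2.1.5, DESeq2 1.30.1 and hg38, and the counting program, the annotation and the use of strand are not given in the sources used here. The paper's methods speak of independent experiments for all data, while its checklist defines n in vitro as technical replicates, and the labels do not say which holds for these samples, so p-values may describe technical spread alone. The cell-line label carries another number in each sample, while every title names HK2.

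Counts were filtered with filterByExpr (minimum count 10) and scaled with TMM, and the groups were compared with the robust quasi-likelihood test of edgeR 4.0.16 in R 4.3.3, with Benjamini-Hochberg adjustment over all genes and a threshold of 0.05. Intervals are 95% intervals of the log2 fold change. The replicate numbers of the labels may pair the samples. The deviations of same-numbered samples from their group means correlated across genes with r of 0.178, 0.159 and 0.176. Those of the other combinations lay between -0.188 and 0.0298. The main edgeR fit and the permutation test of 3 samples against 3 used no pairing. Alternatives used DESeq2 1.42.0, limma 3.58.1 with pseudocounts of 1 and 0.1, RLE scaling, other filters, the replicate block, offsets for a loess trend on gene length (span 0.5), sample weights, and each sample left out. No replicate was a copy of another (chi-square per gene of 10.1 to 233). The procedures were tested on simulated data. Tables and figures were made with Python 3.11.15, pandas 2.3.3 and matplotlib 3.10.9. Positions and promoters are RefSeq GRCh38.p14.

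The members and lists were chosen with earlier results of these data known. Named one by one are the 10 markers, the 4 genes with the smallest p of each of the other injury and the partner lists, and SIRT4; HAS3, C3, KLF6, LGALS3 and CST3 were added after their values were seen. GENCODE v29 lists pseudogenes of CD24 (3) and HAVCR1 (1) that may share reads with them, and genes that overlap CD44, CLU, SOX9, PROM1 and S100A6, on the same or the other strand, whose reads may be counted with them.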

Additional observations from a re-analysis of the deposited data

How the results depend on the processing

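The number of injury markers with an adjusted p under 0.05 was 0 in edgeR with all 6 samples, 1 with DESeq2, 3 with voom and sample quality weights, and 0 to 3 with a sample left out, the 3 being without AdSIRT4 replicate 1. It was 0 in the other alternatives. Of all genes, 2 were called by edgeR, 206 with DESeq2, 5 with all genes of at least 1 count, 4 with at least 10 counts in every sample, 1 with the replicate block, 0 in limma on log2(FPKM + 1), also when blocked by replicate number, 1 on log2(FPKM + 0.1), 5 when limma was limited to genes with a mean of 1 FPKM or more, 12 with the length trend removed, 6 when a replicate block was added to that fit, 1685 with sample quality weights, and 0 to 1227 with a sample left out. The 0 came without any 1 of the AdCtrl replicates and 1227 without AdSIRT4 replicate 1. Without AdCtrl replicates 1, 2 and 3 in turn, SIRT4 itself was not called (edgeR adjusted p of 0.0559, 0.203 and 0.186). The cause was not tested. The replicate block changed no call among the markers.

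The direction reversed for HAVCR1 without AdSIRT4 replicate 1 (0.11, in a range from -0.38 to 0.11 over the fits that leave out 1 sample) and with sample quality weights (0.12), for SPP1 without AdSIRT4 replicate 2 (0.041) and without AdSIRT4 replicate 3 (0.084, in a range from -0.30 to 0.084), and for ADAM10 with the length trend removed (0.017). The other 8 markers kept their direction in all alternatives that tested them, although the log2 fold change of CD24 came to -0.0022 and that of CLU to -0.016 without AdSIRT4 replicate 3. PROM1 had a mean FPKM under 1 and could not be tested at that minimum. PROM1, SOX9 and HAS2 had 60 to 159, 159 to 428 and 8 to 32 counts per sample. A call lost when an AdCtrl replicate is left out rests on 2 samples in that group.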
